A study of Mus musculus with 4 samples.

Results

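The genes described here are the canonical histone genes, the multi-copy genes that encode H1, H2A, H2B, H3 and H4, in hematopoietic stem and progenitor cells of mice with or without deletion of Metrn in myeloid cells. Members were chosen by symbol alone. No symbol of the older naming (Hist followed by a cluster number) was in the tables, so the current names (H1f, H2ac, H2bc, H3c or H4c followed by a number) were used, which gave 70 symbols. Leaving out 1 pseudogene left 69 members of 47561 genes: 11 of H1, 17 of H2A, 17 of H2B, 12 of H3 and 12 of H4. The name pattern is wider than the label of replication-dependent cluster genes. Of the 67 members with a RefSeq position on GRCm38, 53 lay on chromosome 13 and 10 on chromosome 3, in the mouse histone clusters, and 4 lay elsewhere. Those 4 were H1f0 and H1f7 on chromosome 15 and H1f8 and H1f10 on chromosome 6, single-copy linker histone genes that are not part of the clusters. H2bc24 and H1f9 had no position in the table used.

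Bone marrow LSK cells (Lin-Sca-1+c-Kit+), the fraction that holds stem cells and multipotent progenitors, had been sorted by FACS from C57BL/6 mice aged 12 weeks. There were 2 Metrn f/f mice, labelled wild type (WT), and 2 Metrn f/f LysM mice (cKO, here Metrn cKO), so both genotypes carried the floxed Metrn gene and they differed by LysM. LysM is the lysozyme promoter used to drive deletion in macrophages, monocytes and neutrophils, so the sorted cells are not themselves the cells in which deletion is meant to occur, and the series asks how Meteorin from macrophages bears on stem and progenitor cells. Each library had 1 expression value per gene, taken as FPKM (sequenced fragments per length of transcript and size of library). Values below are listed in the order Metrn f/f 1, Metrn f/f 2, Metrn cKO 1, Metrn cKO 2 unless a library is named.

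Replication-dependent histone genes supply the proteins that package newly copied DNA, and their mRNAs accumulate in S phase. Most of their mRNAs end in a conserved stem-loop in place of a poly(A) tail. The stem-loop-binding protein SLBP and the U7 small nuclear RNP direct the cut just after the stem-loop, and NPAT, a substrate of cyclin E and CDK2, activates transcription of the clusters. Library preparations that select poly(A) RNA therefore capture mainly polyadenylated forms of these mRNAs, and the labels do not say whether poly(A) was selected here.

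The 3′ stem-loop is the feature that defines these mRNAs, so it was read from the GENCODE M21 transcripts (GRCm38). Of 63 clustered members with a coding transcript, 41 carried a stem of 6 base pairs, with G at its first 2 places, around a loop of 4 bases that starts with a pair of T, 6 carried none in at least 40 annotated bases past the stop codon, and 16 had no annotated 3′ end to search. There were 6 versions of the stem-loop, and the commonest was found in 24 members. The examples below are from the highest members of their classes and from H4 genes with low or differing values. Capitals mark the stem and loop, written 5′ to 3′ as DNA.
H1f2: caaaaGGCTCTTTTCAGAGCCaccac
H2ac18: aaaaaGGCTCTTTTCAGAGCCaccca
H2bc8: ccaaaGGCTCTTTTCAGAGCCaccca
H3c3: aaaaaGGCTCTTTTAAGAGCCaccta
H4c9: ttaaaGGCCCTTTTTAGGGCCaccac
H4c11: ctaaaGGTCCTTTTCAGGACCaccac
H4c8: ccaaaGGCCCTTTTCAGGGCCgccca
H1f2, H2ac18 and H2bc8 share the commonest loop and stem, H3c3 differs within the loop, and the H4 genes differ within the stem with the pairing kept, H4c9 in the loop as well. In 37 of 41 cases the RefSeq gene ended within 2 bases of the point 5 bases past the stem. GENCODE placed the longest transcript end at least 100 bases past the stem-loop for 19 members, and the 18 of them that were tested had a median level of 6.14 FPKM, against 10.1 FPKM for 22 members that ended nearer. FPKM divides by transcript length and the annotation behind the values is unknown, so the part of length in that difference was not tested. H1f1 and H2bc4 were among the members in which no stem-loop was found.

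Histone genes also share short promoter motifs. RefSeq promoter windows (GRCm38, 250 bases before to 50 bases after a gene's start) were held for 58 clustered members and 27025 genes in all, and both strands were searched. The TATA box, written TATAAA here, was in 58.6% of member promoters against 15.7% of all promoters. CCAAT was in 86.2% against 41.1%, and it was in every H1, H2A, H2B and H3 promoter held but in 3 of 11 H4 promoters. The octamer ATTTGCAT, which POU2F1 binds, was in 22.4% against 1.97%, with 6 of 17 H2A promoters, 7 of 14 H2B promoters and none of the H1, H3 and H4 promoters. A match anywhere in a window counted, and the windows of divergent genes overlap. The same site can therefore count for both genes, as the octamer and the TATA box between H2ac8 and H2bc8 do. No motif overlapped another in the pieces shown here, which are the stretch between the divergent starts of H2ac8 and H2bc8 (chr13:23571221-23571399), the stretch before H4c11 with the first 10 bases of the gene (chr13:21734784-21735043) and the stretch before H1f1 (chr13:23763418-23763667). All are on the plus strand, with motif matches on either strand in capitals. They show 3 layouts: all 3 motifs, the TATA box alone, and the TATA box with the CCAAT box. In H4c11 the TATAAA match lies across the annotated start of the gene.
H2ac8/H2bc8: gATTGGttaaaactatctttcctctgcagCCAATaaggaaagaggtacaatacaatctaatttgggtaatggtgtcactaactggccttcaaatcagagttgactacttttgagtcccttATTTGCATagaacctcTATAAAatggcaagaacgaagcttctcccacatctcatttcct
H4c11: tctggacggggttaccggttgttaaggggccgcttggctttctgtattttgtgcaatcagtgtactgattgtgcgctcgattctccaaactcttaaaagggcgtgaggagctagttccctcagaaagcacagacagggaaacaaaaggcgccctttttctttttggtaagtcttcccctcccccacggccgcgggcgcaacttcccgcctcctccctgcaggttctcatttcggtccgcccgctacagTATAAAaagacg
H1f1: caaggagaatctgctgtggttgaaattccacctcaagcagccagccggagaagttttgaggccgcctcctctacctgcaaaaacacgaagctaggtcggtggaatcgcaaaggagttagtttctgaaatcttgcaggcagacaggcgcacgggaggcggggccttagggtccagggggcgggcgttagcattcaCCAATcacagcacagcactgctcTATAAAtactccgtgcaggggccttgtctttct

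The FPKM values summed to between 392717 and 671802 per library, so totals were not held equal. Metrn itself stood at 29.3, 66.3, 42.3 and 36.7 FPKM, with overlapping genotypes, which checks the labels little because deletion is meant for other cells than those sorted. Of the genes behind the sort (c-Kit and Sca-1) and 8 other stem and progenitor cell genes, 9 of 10 were tested and summed to 1083, 599.6, 468 and 1198 FPKM, and Kit stood at 108, 24.8, 25.9 and 116 FPKM, whereas Ly6a (Sca-1) stood at 37.2, 83.2, 48.4 and 38.2. Metrn f/f 2 and Metrn cKO 1 stood apart from the other 2 libraries by high markers of other cells. Neutrophil markers (10 of 10 genes measured) summed to 2577, 32574, 58466 and 2023 FPKM. Erythroblast markers (14 genes) summed to 4163, 38394, 31646 and 3434, and B lineage and plasma cell markers (15 genes) to 253, 3654, 11289 and 352. Globin genes carried most of the erythroblast sums, and Ighm and Igkc most of the B lineage sums. The centred median of a list is the median over its genes of log2(FPKM + 1) minus each gene's mean over the libraries. For erythroblast markers it was 1.76 in Metrn f/f 2 but 0.19 in Metrn cKO 1, and for B lineage markers 0.80 and 2.04. It was negative for both lists in the other libraries. The macrophage markers summed to 54.8, 1008, 206 and 62.7 FPKM over 9 of 10 genes, with Marco listed at 0 in 3 libraries. The proliferation marker Mki67 stood at 59.0, 11.0, 49.2 and 50.1 FPKM, low in Metrn f/f 2 alone. In bulk RNA, more cells of a type and more RNA per cell cannot be told apart.

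Histone mRNA was a small part of each library. The 69 members summed to 557 FPKM in Metrn f/f 1, 1099.5 FPKM in Metrn f/f 2, 698 FPKM in Metrn cKO 1 and 614 FPKM in Metrn cKO 2, which was 0.142%, 0.164%, 0.124% and 0.149% of all FPKM. The summed level was therefore 828 ± 384 FPKM in Metrn f/f and 656 ± 59.4 FPKM in Metrn cKO (SD, n = 2 mice each), and the 2 genotypes overlapped. Metrn f/f 2 had 1.98 times the sum of Metrn f/f 1. Of the members, 63 reached 1 FPKM in at least 2 libraries and entered the test with 13148 genes in all. Another 4 (H1f6, H1f8, H1f9 and H2ac1) were listed at 0 in every library, and H1f7 and H2bc1 were above 0 but not tested. Of these, H1f6, H2ac1 and H2bc1 were listed as genes known from the testis. H2bc1 stood at 0, 0, 0.0661 and 0.0759 FPKM, and the H1f7 value was 0.147 FPKM in Metrn cKO 2 and 0 elsewhere.

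The tested members had a median level of 7.16 FPKM, against 10.1 FPKM for all tested genes. Levels were uneven: 21 members averaged under 5 FPKM, 34 averaged 5 to 20 FPKM and 8 averaged 20 FPKM or more. These 8 (H1f2, H4c9, H2bc8, H1f0, H2bc4, H2ac18, H2ac19 and H1f10, in falling order) held 43.5% of the summed member level. The ranges of neighbours in that order overlapped.

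**Figure D1:**
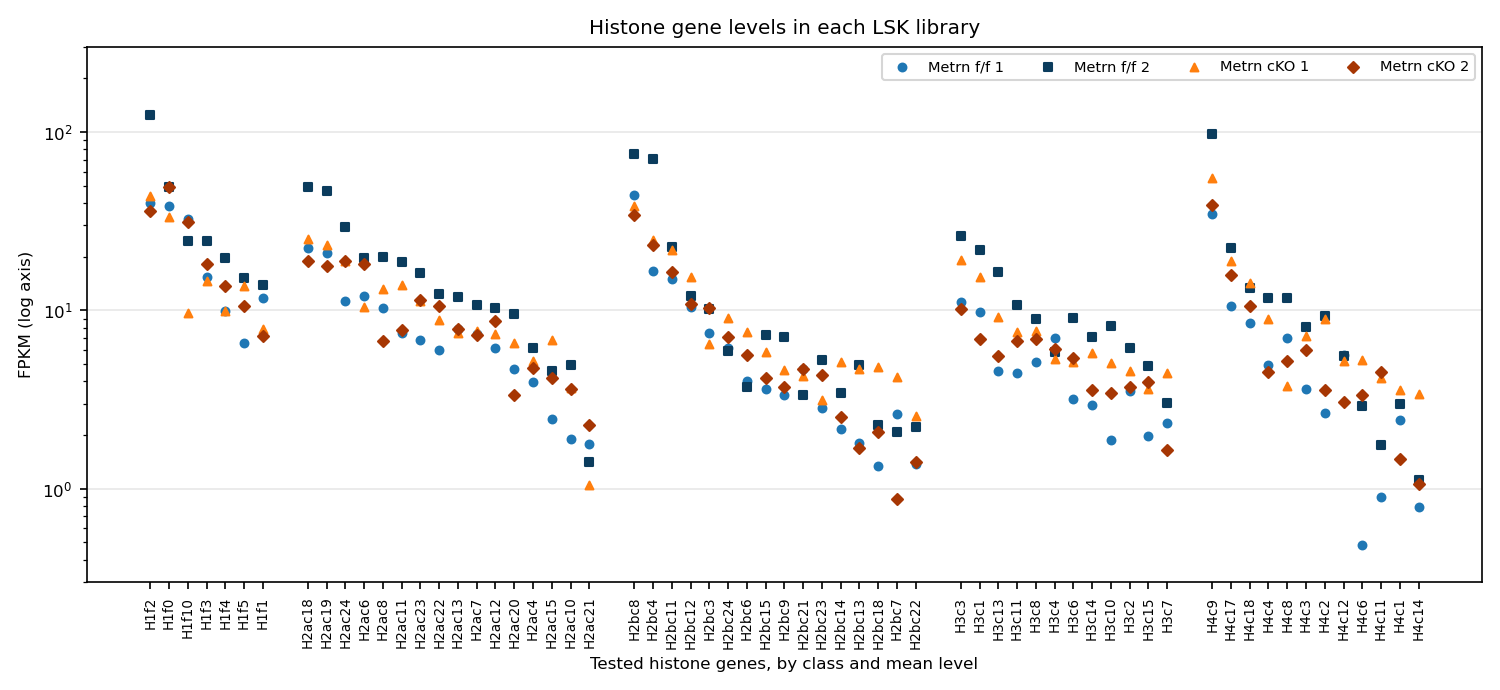
Level of each of the 63 tested histone genes in FPKM (log axis) in the 4 LSK libraries, grouped by class and ordered by mean level within a class, with 1 point per library. The dark squares of Metrn f/f 2 are the highest point for 43 of the 63 genes.

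The linker histones H1 bind the DNA between nucleosomes, and their genes were the highest class per gene, with a class median of 18.2 FPKM. H1f2 (chr13:23738807-23739531, plus strand, 1 exon) was the highest member of all, at 39.9, 125, 43.8 and 35.9 FPKM. The value of Metrn f/f 2 stood far above the others, which were close to each other, and the genotypes overlapped. The log2 fold change (here and below the limma estimate on log2(FPKM + 1), Metrn cKO minus Metrn f/f) was -0.82 with SE 0.59, and it was -0.01 without Metrn f/f 2. H1f0, a linker histone made in non-dividing and differentiated cells, lies outside the clusters and stood at 38.6, 49.0, 33.3 and 48.9 FPKM. H1f10, likewise outside them, stood at 32.6, 24.5, 9.71 and 31.3 FPKM, low in Metrn cKO 1 alone. H1f1 (chr13:23763668-23764412, plus strand) was the H1 gene with separate genotypes, at 11.8, 13.9, 7.82 and 7.18 FPKM, or 12.9 ± 1.54 FPKM in Metrn f/f and 7.50 ± 0.46 FPKM in Metrn cKO (SD, n = 2). Its log2 fold change was -0.70 (SE 0.45, unadjusted p = 0.166, adjusted p = 1.00 in limma). The 3 other tested H1 genes, H1f3, H1f4 and H1f5, averaged 18.2, 13.3 and 11.5 FPKM, with overlapping genotypes, and each was highest in Metrn f/f 2.

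Histone H2A forms a dimer with H2B, and the 17 H2A genes encode 8 different proteins by translation of their GENCODE coding sequences, with 9 genes encoding the same one. The highest were H2ac18, H2ac19 and H2ac24. H2ac18 (chr3:96245497-96246052, plus strand) stood at 22.3, 49.5, 25.1 and 18.9 FPKM. Its neighbour H2ac19 (chr3:96239779-96240374, minus strand) stood at 21.0, 46.4, 23.3 and 17.8 FPKM. The ratio of the 2 stayed between 1.06 and 1.07 in all libraries. Every stretch of 50 bases in H2ac19 also occurs in another gene, as do 89.4% of those in H2ac18. Reads from such stretches fit more than 1 gene, so the separate values of the copies are uncertain. H2ac24 stood at 11.3, 29.5, 19.0 and 18.8 FPKM, low in Metrn f/f 1 and high in Metrn f/f 2, with both Metrn cKO libraries between them. Its coding sequence is identical to that of H2ac23. The log2 fold changes of these genes were -0.59 for H2ac18, -0.60 for H2ac19 and 0.04 for H2ac24 (SE 0.50, 0.50 and 0.53). Without Metrn f/f 2 those of H2ac18 and H2ac19 were -0.03 and -0.04, and without Metrn f/f 1 both were -1.15. The 13 other tested H2A genes averaged 1.63 FPKM (H2ac21) to 15.1 FPKM (H2ac6), and no H2A gene had separate genotypes.

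The 17 H2B genes supply the partner of H2A, and 3 of the 8 members with separate genotypes were H2B genes. Of the 16 tested H2B genes, these were 2 with higher Metrn cKO values (6.31% of all tested genes) and 1 with lower (5.73%). The test called 0 of them. H2bc8 (chr13:23571400-23571863, plus strand) was the highest H2B gene, at 44.6, 75.7, 38.3 and 34.3 FPKM. Both Metrn cKO values lay below both Metrn f/f values, 36.3 ± 2.83 against 60.2 ± 22.0 FPKM (SD, n = 2), and the log2 fold change was -0.67 (SE 0.42, unadjusted p = 0.162, adjusted p = 1.00 in limma). It was -0.29 without Metrn f/f 2 and -1.04 without Metrn f/f 1. H2bc4 (chr13:23684199-23692480, plus strand), in which no stem-loop was found, stood at 16.6, 70.7, 24.8 and 23.3 FPKM, with Metrn f/f 2 alone high. H2bc11 stood at 15.1, 22.7, 21.7 and 16.4 FPKM and did not order by genotype. H2bc6 (chr13:23583670-23621124, minus strand, a 2-exon transcript that runs past the stem-loop) was higher in both Metrn cKO libraries, at 4.02, 3.72, 7.60 and 5.61 FPKM, with a log2 fold change of 0.63 (SE 0.51, unadjusted p = 0.258). H2bc24 was too, at 6.13, 5.90, 9.12 and 7.11 FPKM, with a log2 fold change of 0.37 (SE 0.48, unadjusted p = 0.472). In H2bc18 (1.35, 2.28, 4.79 and 2.08 FPKM) and H2bc7 (2.61, 2.09, 4.21 and 0.878 FPKM) the highest value was that of Metrn cKO 1. H2bc7 spanned 4.79-fold between libraries, and its extremes were the 2 Metrn cKO libraries.

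The 12 H3 genes encode a core histone that pairs with H4, and none of them had separate genotypes. H3c3 (chr13:23745042-23745521, minus strand) stood at 11.2, 26.2, 19.2 and 10.1 FPKM. H3c1 stood at 9.77, 21.9, 15.4 and 6.93 FPKM, and H3c13, on chromosome 3, at 4.57, 16.4, 9.18 and 5.55 FPKM. In each of these genes Metrn f/f 2 was highest, Metrn cKO 1 came next and the remaining 2 libraries were low. The log2 fold changes were -0.28 (SE 0.57), -0.46 (SE 0.60) and -0.27 (SE 0.67). The 9 other H3 genes averaged 2.86 FPKM (H3c7) to 7.38 FPKM (H3c11). Summed over the class, H3 genes stood at 57.9, 128, 93.0 and 64.1 FPKM. That was 6.01%, 6.10%, 7.86% and 6.89% of the level of H3f3a and H3f3b together, the genes for the replication-independent H3.3.

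All 12 H4 genes encode the same protein, from 11 different coding sequences, and 1 gene dominated. H4c9 (chr13:22040960-22041362, minus strand) stood at 34.9, 97.9, 55.2 and 39.1 FPKM and held 39.8% to 51.8% of the summed H4 level in each library. Its genotypes overlapped, with a log2 fold change of -0.33 (SE 0.56). H4c17 (10.5, 22.4, 19.0 and 15.9 FPKM) and H4c18 (8.51, 13.4, 14.2 and 10.6 FPKM) share 1 coding sequence and were lowest in Metrn f/f 1. The H4 class held the 2 members with the widest span and the largest positive fold changes, both at low levels. H4c6 (chr13:23551286-23551668, minus strand) stood at 0.482, 2.90, 5.29 and 3.34 FPKM, an 11.0-fold span that rests on the low value of Metrn f/f 1. H4c11 (chr13:21735034-21735456, plus strand) stood at 0.899, 1.77, 4.16 and 4.51 FPKM, or 1.33 ± 0.61 against 4.34 ± 0.25 FPKM (SD, n = 2), with a 5.01-fold span. Both were higher in both Metrn cKO libraries, with log2 fold changes of 1.22 for H4c11 (SE 0.53, unadjusted p = 0.0596) and 1.12 for H4c6 (SE 0.66, unadjusted p = 0.137), and adjusted p = 1.00 in limma. The log2 fold change of H4c6 was 0.42 without Metrn f/f 1 and 1.82 without Metrn f/f 2, while that of H4c11 ran from 0.95 to 1.49 over leaving out each library.

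Within the same class, H4c8 and H4c12 lay the other way. H4c8 (chr13:23531044-23531478, plus strand) stood at 7.02, 11.8, 3.75 and 5.23 FPKM, with a log2 fold change of -0.90 (SE 0.53, unadjusted p = 0.137), the most negative of any member. H4c12 stood at 5.64, 5.53, 5.19 and 3.06 FPKM, with a log2 fold change of -0.39 (SE 0.53), and 1 Metrn cKO value was close to the Metrn f/f values. H4c14, on chromosome 3, stood at 0.793, 1.12, 3.40 and 1.07 FPKM, high in Metrn cKO 1 alone. The 4 H4 genes with separate genotypes (H4c6, H4c8, H4c11 and H4c12) were thus 2 above and 2 below, and 0 were called. Over all tested genes, 6.31% lay above and 5.73% below.

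No histone gene passed the genotype test, and neither did any other gene. Of the 63 members, 0 were called higher and 0 lower at an adjusted p under 0.05 (limma on log2(FPKM + 1), Benjamini-Hochberg), against 0% of all 13148 tested genes in each direction. At an unadjusted p under 0.05 there were 0 members and 39 genes (0.297% of all). Both Metrn cKO values lay above both Metrn f/f values in 4 members (H2bc6, H2bc24, H4c6 and H4c11), against 6.31% of all tested genes, and below in 4 (H1f1, H2bc8, H4c8 and H4c12), against 5.73%. These shares are near the background. The median log2 fold change of the members was -0.06, beside 0.07 for all tested genes, and by class it was -0.24 for H1, -0.08 for H2A, -0.02 for H2B, -0.04 for H3 and 0.15 for H4. The member median depended on single libraries: it was -0.45 without Metrn f/f 1 and 0.30 without Metrn f/f 2. With only Metrn f/f 1 and Metrn cKO 2, the libraries with low markers of other cells, the median member difference was 0.21, beside 0.04 for all genes, and 44 of 63 members were higher in Metrn cKO 2 and 19 lower, where 57.9% of all genes were higher. That pair holds 1 mouse per genotype and has no test.

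**Figure D2:**
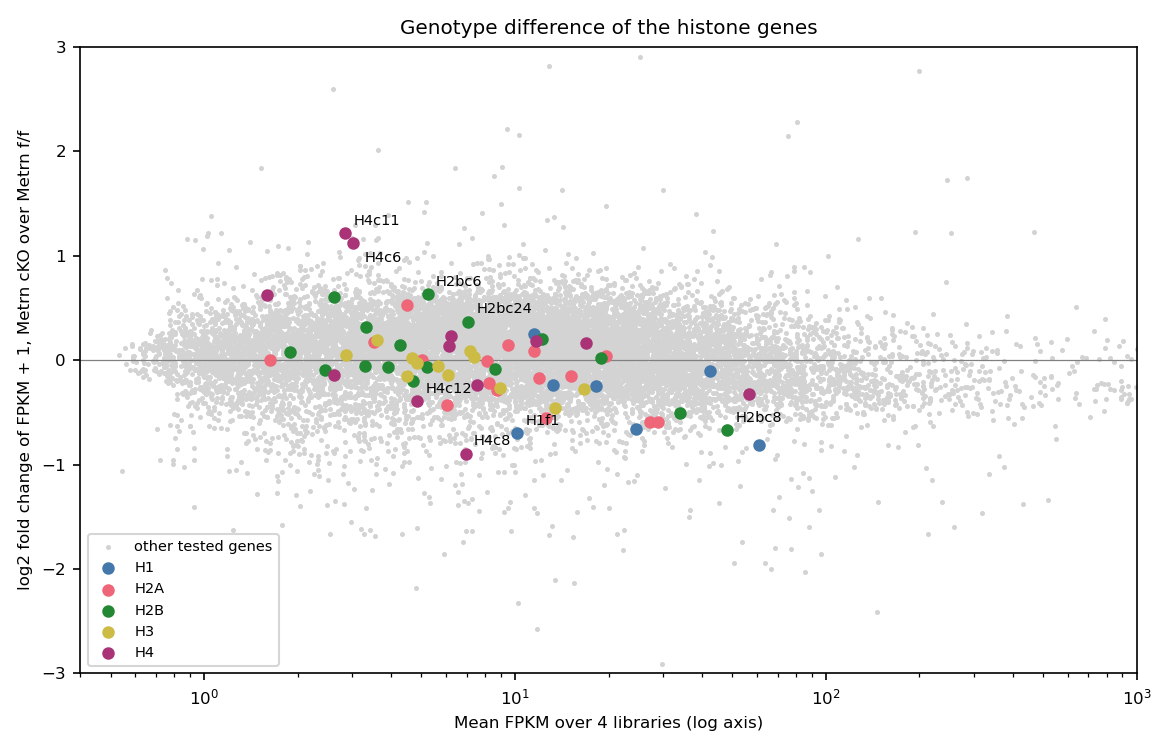
Log2 fold change of FPKM + 1 (Metrn cKO over Metrn f/f) against mean FPKM (log axis) for the 63 tested histone genes, coloured by class, over the other tested genes in grey (genes beyond the axis limits are not drawn). The 8 labelled members have separate genotypes, 4 above 0 and 4 below, and none passed the test.

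Histone levels varied within each genotype. Metrn f/f 2 was the highest library for 43 of the 63 members (29.8% of all tested genes) and Metrn cKO 1 for 13 (14.8%), whereas Metrn f/f 1 was the lowest for 35 (19.9%) and Metrn cKO 2 for 16 (13.5%). Between the 2 mice of the same genotype, 55 of 63 members were higher in Metrn f/f 2 than in Metrn f/f 1, where 42.3% of all tested genes were higher. Of these, 22 passed 2-fold (13.7% of all genes) and 0 members were 2-fold lower (21.9%). The median difference was 0.71 on the log2 scale, whereas the median of all genes was -0.23, of the opposite sign. Between the Metrn cKO mice, 6 members were 2-fold lower in Metrn cKO 2 than in Metrn cKO 1 (6.72% of all genes) and 1 was higher (12.4%).

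Across genotypes the same order of libraries appeared. Metrn cKO 2 had 17 members 2-fold lower than Metrn f/f 2 (12.2% of all genes) and 0 higher (23.8%). Metrn cKO 1 had 8 members 2-fold higher than Metrn f/f 1 (6.56%) and 1 lower (10.4%), and against Metrn f/f 2 it had 4 lower (6.33%) and 1 higher (7.09%). Metrn cKO 2 and Metrn f/f 1 were closest, with 2 members 2-fold higher in Metrn cKO 2 (0.745%) and 0 lower (0.616%). These pairs share libraries, so they are not separate pieces of evidence. The summed level in Metrn f/f 2 was 1.75 times that in Metrn f/f 1 for H1, 2.04 times for H2A, 1.86 for H2B, 2.22 for H3 and 2.29 for H4. The library total over all genes was 392717 FPKM in Metrn f/f 1 and 671802 FPKM in Metrn f/f 2. The part of that total in these ratios was not tested. As a share of that total the members held 0.142% and 0.164%.

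**Figure D3:**
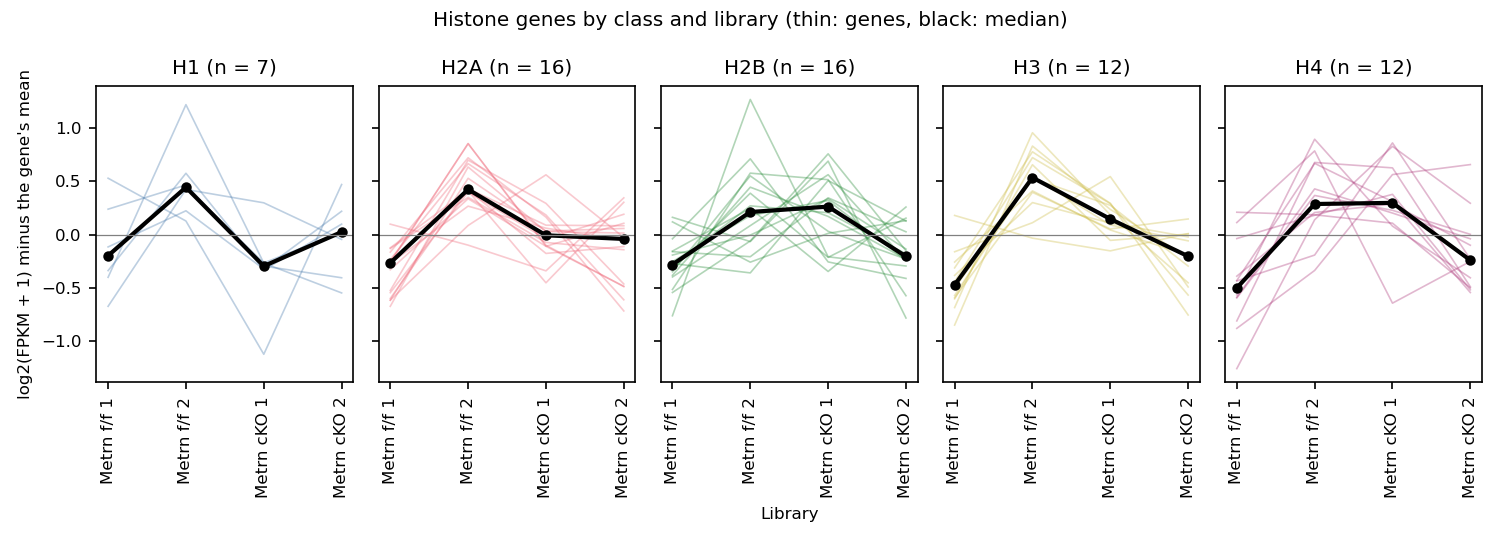
Log2(FPKM + 1) of each tested member minus its mean over the 4 libraries, by histone class, with thin lines for genes and black points for the class median. The library Metrn f/f 2 is the highest median in H1, H2A and H3, while in H2B and H4 Metrn cKO 1 is level with it or slightly above.

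The class medians of these centred values give the pattern in numbers. They were -0.20, 0.44, -0.30 and 0.02 for H1, -0.27, 0.42, -0.01 and -0.04 for H2A, and -0.28, 0.21, 0.26 and -0.21 for H2B. For H3 they were -0.47, 0.53, 0.15 and -0.20, and for H4 -0.50, 0.29, 0.30 and -0.24. Metrn cKO 1 was thus low for H1 but raised for H2B and H4. The 4 blocks of tested members moved alike, with 16 of 17, 5 of 5 and 25 of 28 members on chromosome 13 and 8 of 10 on chromosome 3 higher in Metrn f/f 2 than in Metrn f/f 1, beside the 42.3% of all genes. The blocks span chr13:21715711-21833475, chr13:22035122-22043658, chr13:23531044-23764412 and chr3:96219885-96270192.

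Transcript length moved with the same libraries. Of the tested members, 60 had an annotated length and 44 had a longest transcript under 1000 nt. Over the 1609 tested genes of that length the centred medians were -0.35, 0.60, -0.02 and -0.24, beside -0.34, 0.41, 0.11 and -0.14 for the 63 histone genes. Genes of 4000 nt or more (4108 genes) stood at 0.40, -0.65, -0.16 and 0.41, the reverse order. The part of length in the histone values was not tested. When each library was centred on genes under 1000 nt, 19 members lay above in both Metrn cKO libraries (3.98% of all genes) and 7 below (3.89%), with 0 called in limma. The 19 were 1 H1, 4 H2A, 5 H2B, 3 H3 and 6 H4 genes.

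The part of the other-cell markers, which were also highest in Metrn f/f 2 and Metrn cKO 1, was not tested either. Neither Metrn f/f 1 nor Metrn cKO 2 lacked such markers. Mki67 was lowest in Metrn f/f 2, the library with the highest histone sum. The part of transcript length in the Mki67 values was not tested.

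**Figure D4:**
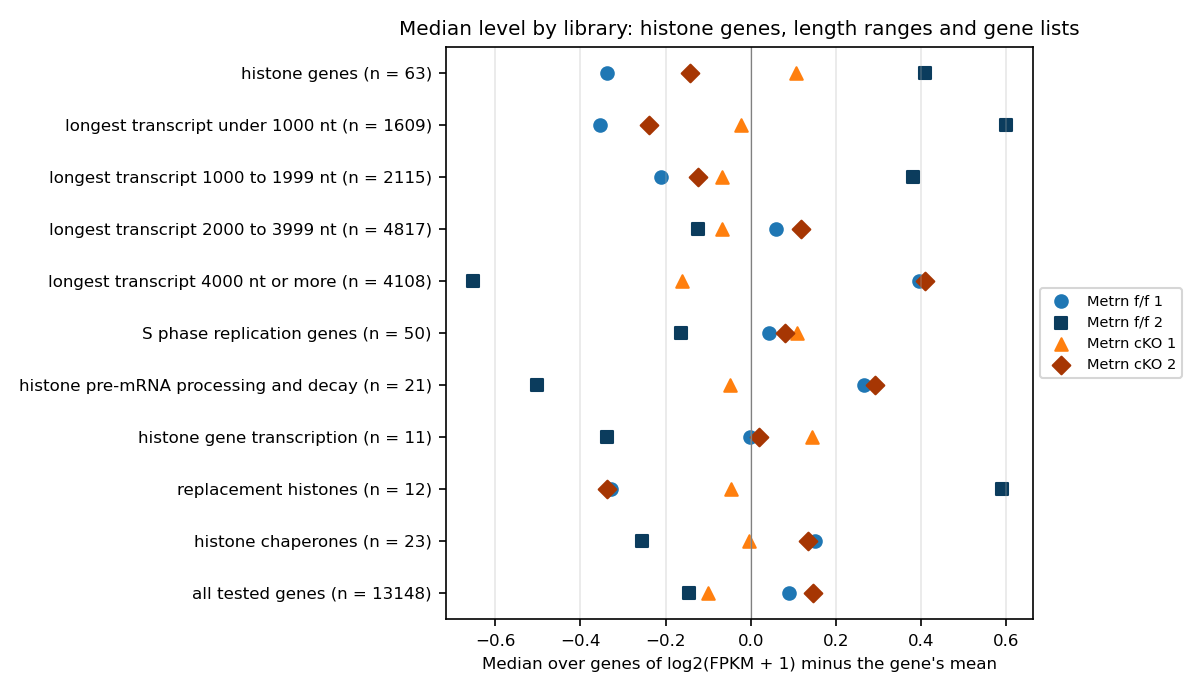
Median over genes of log2(FPKM + 1) minus each gene's mean, per library, for the histone genes, for tested genes by length of the longest transcript, and for gene lists. Metrn f/f 2 is high for histone genes, short transcripts and replacement histones and low for long transcripts and the lists of histone processing, transcription and chaperones.

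The genes that act with the histone clusters had other patterns over the libraries. The 50 S phase replication genes, which copy DNA while histones are made, had centred medians of 0.04, -0.16, 0.11 and 0.08. Of these, 5 lay above (6.31% of all tested genes) and 2 below (5.73%) in both Metrn cKO libraries and 0 were called. The median log2 fold change was 0.14. The smallest p-values in that list were those of the repressor E2f8 (23.3, 9.77, 32.3 and 22.8 FPKM), Wdr76 (9.04, 2.91, 9.24 and 11.8) and the nuclease Exo1 (7.32, 2.59, 8.48 and 7.91). In all 3 the low library was Metrn f/f 2, but these genes were picked by p-value and do not stand for the list. Over the list, 22 of 50 genes were higher in Metrn f/f 2 than in Metrn f/f 1, beside 42.3% of all tested genes.

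Factors that process or degrade histone mRNA (21 of 22 genes tested) had centred medians of 0.27, -0.50, -0.05 and 0.29 and a median log2 fold change of 0.22. In both Metrn cKO libraries 1 gene lay above (6.31% of all tested genes) and 0 below (5.73%), and 0 were called. Slbp, the stem-loop-binding protein, stood at 56.7, 82.0, 84.3 and 61.1 FPKM, high in the same 2 libraries as the histone genes. Rnu7, the RNA of the U7 particle, stood at 3.06, 4.45, 0.192 and 3.57 FPKM, low in Metrn cKO 1 alone. The nuclease Eri1 stood at 15.4, 7.33, 16.0 and 13.9 FPKM and the cleavage factor Cstf2t at 9.57, 4.59, 9.76 and 10.8 FPKM, both low in Metrn f/f 2. So was Casp8ap2, a partner of NPAT in the histone locus body, at 9.38, 1.50, 4.77 and 8.48 FPKM. These named genes do not stand for the list. In it, 6 of 21 genes were higher in Metrn f/f 2 than in Metrn f/f 1, beside 42.3% of all tested genes.

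Of the 11 genes for histone gene transcription, 4 lay above (6.31% of all tested genes) and 1 below (5.73%) in both Metrn cKO libraries. The test called 0 of them, and the median log2 fold change was 0.33. Npat stood at 6.00, 1.74, 3.30 and 7.38 FPKM, lowest in Metrn f/f 2, where most histone genes were highest. Genes of 4000 nt or more had the same order of libraries, with centred medians of 0.40, -0.65, -0.16 and 0.41. The part of transcript length in the values of Npat and the other listed factors was not tested. The phosphatase Cdc25a (22.2, 12.0, 39.1 and 23.0 FPKM) and the cyclin Ccne2 (4.15, 3.79, 9.46 and 4.20 FPKM) were highest in Metrn cKO 1. Pou2f1, the octamer-binding factor, stood at 5.05, 0.161, 2.10 and 6.01 FPKM, near 0 in Metrn f/f 2.

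Replacement histones were listed as single-copy variants made outside S phase or by other processing. Their centred medians were -0.33, 0.59, -0.05 and -0.34 over 12 of 13 genes, highest in Metrn f/f 2, though not every gene was. That list includes H1f0 and H1f10, which are members too. It had 0 genes above (6.31% of all tested genes), 1 below (5.73%) and 0 called, and its median log2 fold change was -0.19. The gene below was H3f3b, at 460.5, 949, 378 and 408 FPKM, and H3f3c stood at 1.93, 5.01, 2.24 and 1.84 FPKM. The 23 histone chaperones had centred medians of 0.15, -0.26, -0.00 and 0.14 and a median log2 fold change of 0.11. Among them 1 lay above (6.31% of all tested genes), 0 lay below (5.73%) and 0 were called. Chaf1a, of the complex that deposits new H3 and H4 at the fork, stood at 30.3, 11.7, 29.8 and 29.7 FPKM. Ubn1 and the centromere chaperone Hjurp, the other 2 with the smallest p-values, were also lowest in Metrn f/f 2, at 6.44 and 14.9 FPKM. Over the 23 chaperones, 7 were higher in Metrn f/f 2 than in Metrn f/f 1, beside 42.3% of all tested genes.

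Many H2A and H2B genes lie head to head and share a promoter region, as in the H2ac8 and H2bc8 stretch printed above. There were 10 such pairs with both genes tested, with 164 to 249 bases between the starts. H2B was the higher gene in all 4 libraries in 4 pairs and H2A in 4 pairs, and in the remaining pairs the order varied between libraries. H2bc8 exceeded H2ac8 by 2.11, 1.93, 1.53 and 2.35 on the log2 scale of the FPKM ratio, whereas H2bc22 lay below H2ac22 by a log2 ratio of -2.11, -2.49, -1.80 and -2.92. The mean log2 ratio spanned 4.31 between pairs, and the range over libraries within a pair was 0.57 to 2.18. The log2 ratio of H2bc4 to H2ac6 was 0.46, 1.84, 1.25 and 0.35, highest in Metrn f/f 2. In 5 of 10 pairs the same library was highest for both genes.

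**Figure D5:**
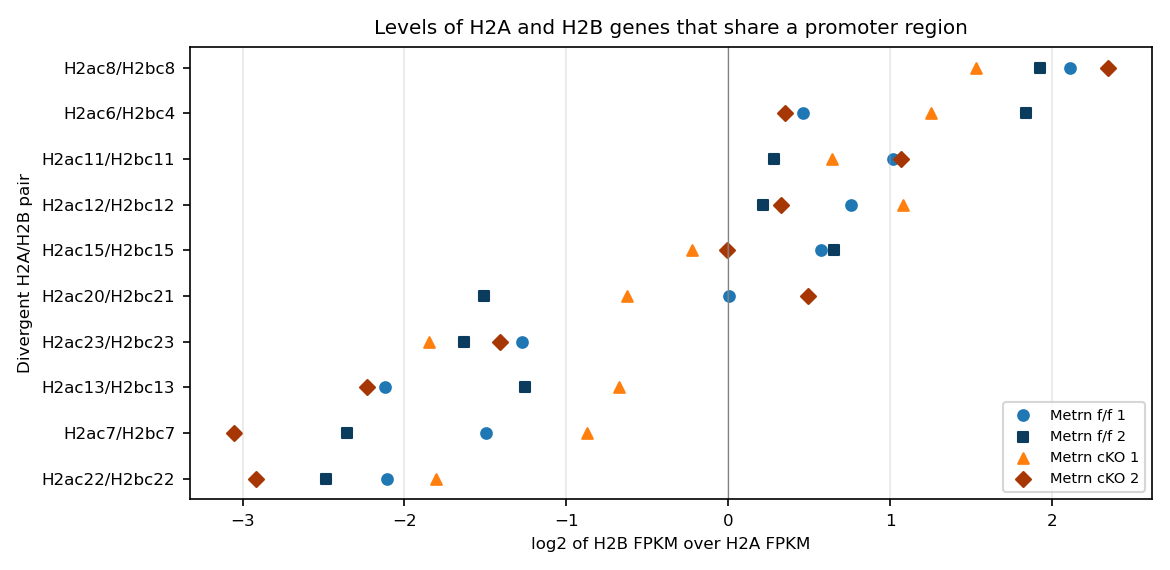
Log2 of H2B FPKM over H2A FPKM in each of the 4 libraries for 10 divergent gene pairs, ordered by mean ratio. In 8 pairs all 4 libraries lie on the same side of 0, with mean ratios from -2.33 (H2ac22/H2bc22) to 1.98 (H2ac8/H2bc8).

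Sequence likeness limits what each value stands for. Median identity of the coding sequences between clustered genes of a class was 70.9% in H1, 96.2% in H2A, 92.7% in H2B, 97.1% in H3 and 94.7% in H4. Of the clustered members, 31 had at least 50% of their 50-nt windows in another gene, and H2ac19, H2bc23 and H3c14 had all of them. Members with fewer shared windows (31 tested) had centred medians of -0.26, 0.41, 0.08 and -0.23, and the 31 with more had -0.50, 0.42, 0.11 and -0.14. Metrn f/f 2 was the highest library in both sets, although the level of a single copy in the second set is uncertain.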

How the data were processed

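RNA-seq libraries of LSK cells from 2 Metrn f/f and 2 Metrn cKO mice were made from TRIZOL-extracted, DNase-treated total RNA, per the labels' protocols. Per the submitters' processing notes, the build was mm10 and the tools included the aligner HISAT2 2.1 and the counter featureCounts 1.6.4, while the roles of DESeq2 2.11.40.6 and the remaining tools are not stated. No source used here gives the annotation, strand setting or read totals, so the depth is unknown and no counting interval was computed. The authors deposited 1 value per gene and library. The file headers name only the library, and the deposited values were taken as FPKM because they have decimals, are never negative and sum to different totals.

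The 13148 genes that reached 1 FPKM in 2 or more libraries were fitted as log2(FPKM + 1) with limma 3.58.1 (intensity trend, R 4.3.3), 2-sided, with Benjamini-Hochberg adjustment and a threshold of 0.05. The pseudocount of 1 understates fold changes of low genes. The code of the fit was checked on simulated log2 values with known changes. That check does not measure what the fit could find among so few mice. Stem-loops, coding sequences and lengths came from GENCODE M21 and positions and promoters from RefSeq, both GRCm38 (mm10), with Biopython 1.88. The GENCODE match used RefSeq positions and covered 67 members. The members and lists were chosen with earlier results of these data known. Named are, per class, the 3 highest members and every member with separate genotypes, the 5 with the smallest p in each direction, the widest spans, the 3 listed testis genes and the 3 smallest p-values of other lists. Npat, Slbp, Casp8ap2, Kit, Ly6a, Mki67 and the members named for ranges or pairs were added after their values were seen. The sample numbers of the 2 genotypes mark separate mice, and deviations of same-numbered samples correlated at -0.71, so no block was used. Alternatives were other pseudocounts, filters, scalings, no trend, a replicate block and leaving out each library.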

Additional observations from a re-analysis of the deposited data

How the results depend on the processing

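No member was called under any alternative run, and the values are shares of a library with 2 mice per genotype and unknown depth. Members with separate genotypes were 4 above and 4 below, and the count above became 2 with a filter of at least 5 FPKM, 2 with median-ratio scaling and 1 with quantile normalization. Centring each library on short transcripts, chosen after seeing the data, gave 19 above (3.98% of all genes) and 7 below (3.89%). It moved the median of all genes from 0.07 to 0.27. With 1 library per genotype (Metrn cKO 2 and Metrn f/f 1, also chosen after seeing the data) 44 members were higher and 19 lower, where 57.9% of all genes were higher. Leaving out each library in turn gave 5 to 37 members above and 6 to 44 below, with 44 below without Metrn f/f 1 and with 37 above and 6 below without Metrn f/f 2. It gave 0 to 32 genes called higher and 0 to 5 called lower over all genes, against 0 in the full fit. The lone library of a genotype is assumed there to vary like the other genotype. The log2 ratio of summed levels then ran from -0.74 to 0.24 for all members, -0.86 to -0.0495 for H1, -0.75 to 0.28 for H2A, -0.69 to 0.21 for H2B, -0.71 to 0.44 for H3 and -0.67 to 0.52 for H4, with each upper end reached without Metrn f/f 2.

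With a replicate block, 3 of all genes were called higher and 1 lower (limma), none of them a member, and the count of members called did not change. With the pairing crossed, chosen after seeing the data, 37 genes were called higher and 65 lower, and 0 members.

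Single genes changed sign as follows, all without a call. Median-ratio scaling gave a log2 fold change of -0.0197 for H2ac24 and -0.0346 for H2bc11, and short-transcript centring gave 0.0938 for H1f0 and 0.105 for H2bc7. Over leaving out each library the ranges were -0.38 to 0.17 for H1f0, -1.45 to 0.14 for H1f10, -0.61 to 0.69 for H2ac24, -0.26 to 0.30 for H2bc11, -1.52 to 0.51 for H2bc4, -0.83 to 0.64 for H2bc7, -1.01 to 0.0819 for H3c1, -1.09 to 0.55 for H3c13, -0.86 to 0.30 for H3c3, -0.35 to 0.67 for H4c17, -0.11 to 0.48 for H4c18 and -1.06 to 0.40 for H4c9; among genes that kept their sign the widest were -1.63 to -0.01 for H1f2, -1.15 to -0.03 for H2ac18, -1.15 to -0.04 for H2ac19, 0.42 to 1.82 for H4c6, 0.08 to 1.17 for H4c14, 0.15 to 1.06 for H2bc18 and -1.04 to -0.29 for H2bc8. The cause of these changes was not tested.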

Other observations

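Histone-named genes outside the name pattern were not tested as members. H2aw stood at 16.3, 49.1, 18.1 and 21.4 FPKM in Metrn f/f 1, Metrn f/f 2, Metrn cKO 1 and Metrn cKO 2, and H2bu2 at 6.36, 21.6, 6.02 and 6.25 FPKM, both highest in Metrn f/f 2. H4f16 stood at 1.18, 2.02, 0.669 and 1.09 FPKM, with the same library highest. The H2A members together stood at 29.1%, 26.7%, 20.7% and 32.8% of the summed level of H2az1 and H2az2, the genes for the replacement histone H2A.Z, so that share was lowest in Metrn cKO 1.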
